A study of Mus musculus with 6 samples.

Results

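Transcripts of 8 ligands of the TNF superfamily were measured in mouse LSK cells, a sorted progenitor fraction that lacks lineage markers, carries Sca-1 and c-Kit and contains the blood stem cells and multipotent progenitors. The genes are Ltb, Lta, Tnf, Tnfsf11, Tnfsf12, Tnfsf13b, Tnfsf14 and Tnfsf10. They were taken by the gene name in the scanner files, which gave 9 probes on 27 spots, out of 55681 probes with 34821 gene names on 59305 non-control spots. Freshly sorted cells came from NIKaly/aly mice (samples 2, 4 and 6) and from wild-type mice (samples 1, 3 and 5), 3 samples per genotype, each on its own 1-colour Agilent array, all on the same slide. The gene Map3k14 encodes NIK, a kinase at the head of the alternative NF-kB pathway. The aly allele is a germline point mutation that impairs NIK, so every cell of those mice carries it, not LSK cells alone. The comparison asks which transcripts of LSK cells differ when NIK is impaired. The labels give no age or sex, and do not say whether the samples came from separate animals or pools, so p-values here rest on the spread among 6 samples and that spread may be technical.

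TNF superfamily ligands are mostly trimers on the surface of cells that bind receptors of the matching family, and several are also released by proteolysis. Lymphotoxin beta, with lymphotoxin alpha, LIGHT, RANK ligand, BAFF and TWEAK act on receptors that can stabilise NIK and so drive processing of the Nfkb2 precursor, while TNF acts mainly through the canonical pathway and TRAIL is known as a death ligand. NIK therefore works downstream of many of these ligands, and NF-kB factors also regulate transcription of some of the ligand genes. In blood-forming tissue the ligands are best known as products of lymphocytes and myeloid cells.

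The sequences here show what was read and what precedes the gene with the smallest p among the ligands. Ltb, Tnf and Lta are neighbours in the class III region of the major histocompatibility complex, and their probes lie on chromosome 17 of the mm9 build, Ltb at 35333097 to 35333156, Tnf at 35336795 to 35336854 and Lta at 35340275 to 35340334. Of the 8 genes, 7 had a window of 250 bases before an annotated start in the RefSeq promoter table, built on GRCm38.p6. An NF-kB type motif, GGG followed by any 2 bases and then TTTCC, was searched on both strands in these windows. It was found in 1.41% of all 32851 windows of this length in the table. Among the ligands it matched only before Ltb, as GGGACTTTCC on the minus strand, with its first plus-strand base 87 bases before the start. A looser form, GGG followed by any 5 bases and then CC, was found in 45.8% of all windows and before 5 of the ligands, Ltb, Lta, Tnf, Tnfsf11 and Tnfsf14. A match is a description of the letters and not evidence of a site. The Ltb window is chr17:35194257-35194506, plus strand, with the match in capitals:
Ltb: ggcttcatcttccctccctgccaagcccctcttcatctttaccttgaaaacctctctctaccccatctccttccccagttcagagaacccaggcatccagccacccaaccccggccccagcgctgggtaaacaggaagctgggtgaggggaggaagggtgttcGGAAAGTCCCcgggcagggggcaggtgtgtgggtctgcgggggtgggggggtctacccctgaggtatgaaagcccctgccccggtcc
Tnfsf12 was the member with more than 1 probe. Its dimmer probe lies on chromosome 11 at 69500528 to 69500587 (minus strand, mm9) and its brighter probe at 69500342 to 69500401. These positions do not overlap, so the probes read different stretches of the transcript. The dimmer probe has an open reading frame over its 60 bases, while the brighter one has a stop in all frames. Whether either lies in coding sequence was not tested. The dimmer probe is given whole and the brighter one by its first 30 bases:
Tnfsf12 dimmer probe: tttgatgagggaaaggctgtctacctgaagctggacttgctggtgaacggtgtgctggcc
Tnfsf12 brighter probe: tgggctcatcttaaggctgcccccttccta

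The share of spots well above background was 33.1% to 45.6% per array, by the scanner software's flag for a signal clearly over the local background. No spot was saturated. Levels are log2 of the processed signal relative to the array's 75th percentile. The LSK identity was checked on 12 progenitor markers, all 12 tested. Kit read 4.65 to 5.45 and Cd34 6.93 to 7.76 over the 6 arrays. Ly6a, which encodes the Sca-1 antigen used in the sort, read 2.94, 2.44 and 1.5 in NIKaly/aly 2, 4 and 6, against 3.67, 2.79 and 2.45 in wild type 1, 3 and 5. Procr, a stem cell marker, read 2.5 to 3.07 in NIKaly/aly and 1.72 to 2.17 in wild type, with no overlap (difference 0.78 ± 0.28, SE; limma, unadjusted p = 0.023, adjusted p = 0.99998). It was the 1 of the 12 without overlap, where 2.68% of all genes were higher in NIKaly/aly without overlap. Mecom was well above background on 2 arrays of each genotype, and the other 11 on all 6. Markers of lineages that a sort of this kind should leave out were also detected. All 12 neutrophil markers were well above background on every array, and of 13 B cell markers 7 to 10 were on a NIKaly/aly array and 11 to 12 on a wild-type array. The summed level of the 12 neutrophil markers was 52.4 to 77.4 log2 units in NIKaly/aly and 54.1 to 83.2 in wild type, and 10 B cell markers summed to -14.1 to 14.6 in NIKaly/aly and 2.02 to 23.6 in wild type. The mean of 9 monocyte, macrophage and dendritic markers was 1.72 to 1.96 in NIKaly/aly and 2.26 to 2.48 in wild type, with no overlap. Of these 9, which include Flt3 of the progenitor list, 8 read lower in NIKaly/aly, where 51.5% of all tested genes did. Over all genes 1.89% were lower without overlap, and 1.33% had an unadjusted p under 0.05 in either direction. Of the 9, Csf1r (-1.17 ± 0.33), Cx3cr1 (-1.08 ± 0.40) and Itgax (-1.01 ± 0.38) were lower without overlap and at an unadjusted p under 0.05, and none passed the adjusted test. Cx3cr1 and Itgax were well above background on 2 NIKaly/aly arrays and 3 wild-type arrays, and were lowest in NIKaly/aly 6 (-1.24 and -1.72). The part of these 9 markers in any ligand's reading was not tested. Array weights estimated in limma were lowest for NIKaly/aly 2 (0.26) and wild type 1 (0.24), so the ligands' values without both are given. In bulk samples, fewer cells of a type and less RNA per cell cannot be told apart. Map3k14 itself read 1.60, 2.53 and 2.14 in NIKaly/aly 2, 4 and 6, against 0.73, 2.54 and 2.06 in wild type 1, 3 and 5, and a point mutation need not alter this level.

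Transcripts of 6 of the 8 ligands could be measured in LSK cells of both genotypes. Ltb, Tnf, Tnfsf12, Tnfsf13b, Tnfsf14 and Tnfsf10 each had a probe well above background on all 6 arrays, and these 6 passed the filter for testing, which asks for at least 3 arrays whatever the genotype. Lta and Tnfsf11 were not well above background on any array of either genotype. None of the 6 tested ligands passed the genotype test (limma, Benjamini-Hochberg adjusted p = 0.99998 for each), against 0% of all genes. The genotypes overlapped for all 6, where 4.57% of all genes did not overlap. Of the 6, 4 read lower and 2 higher in NIKaly/aly, where 51.5% of all tested genes read lower. Their median log2 difference was -0.16, and that of all 15682 genes was -0.0081.

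**Figure D1:**
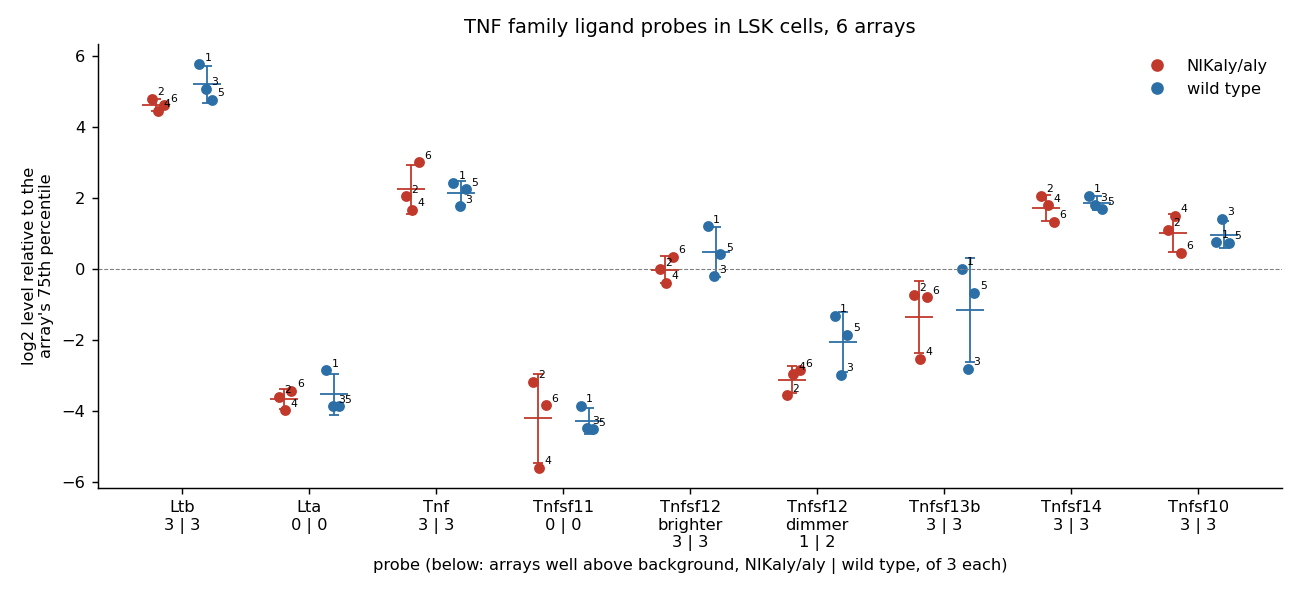
Level of each ligand probe per array, as log2 relative to the array's 75th percentile, with NIKaly/aly in red left of wild type in blue, the sample number beside each point, and bars for mean and SD (n = 3). The height of a probe cannot be compared with that of another probe. For Lta and Tnfsf11, 0 arrays of 3 in each genotype were well above background. The genotypes overlap for each of the 6 tested ligands.

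Ltb encodes lymphotoxin beta, the membrane-anchored chain that holds lymphotoxin alpha at the cell surface and is recognised by the lymphotoxin beta receptor. Its probe read 4.81, 4.47 and 4.62 in NIKaly/aly 2, 4 and 6, against 5.78, 5.08 and 4.78 in wild type 1, 3 and 5. All but the lowest wild-type array lay above the NIKaly/aly arrays, and wild type 5 lay just under NIKaly/aly 2. The mean was 4.63 ± 0.17 in NIKaly/aly and 5.21 ± 0.51 in wild type (SD, n = 3 each), a difference of -0.58 ± 0.34 (SE; 95% interval -1.36 to 0.19; limma, unadjusted p = 0.12, adjusted p = 0.99998). As a fold this is 0.67, with an interval of 0.39 to 1.14, so neither no change nor a fall of more than 2-fold lies outside it. Ltb had the smallest unadjusted p of the 6, and 1.33% of all genes were under 0.05. Wild type 1 set the size: the difference was -0.30 without it and -0.38 without samples 1 and 2. Before scaling the Ltb signal was 3512, 4471 and 1247 in NIKaly/aly 2, 4 and 6. In wild type 1, 3 and 5 it was 2586, 7601 and 2205. The unscaled signal was thus highest in wild type 3 and lowest in NIKaly/aly 6. B cell markers are set beside Ltb for their scaled levels. On that scale both were highest in wild type 1 and lowest in NIKaly/aly 4, with another order among the other 4 samples. The mean level of the 10 tested ones was 1.46, -1.41 and 0.73 in NIKaly/aly 2, 4 and 6, against 2.36, 0.20 and 0.95 in wild type 1, 3 and 5. All 10 read lower in NIKaly/aly, where 51.5% of all tested genes did, with a median of -0.74, and none passed the test. Among them Bank1 was well above background on 1 NIKaly/aly array and 3 wild-type arrays, so it entered the test through wild type. Ms4a1 and Faim3 were so on 2 NIKaly/aly arrays and 3 wild-type arrays. Nothing is drawn from the count of 10. The shared highest and lowest sample is not particular to B cells. Marker means of plasma cells, T cells, mature neutrophils, monocytes with macrophages and dendritic cells, and erythroblasts were also highest in wild type 1 and lowest in NIKaly/aly 4. Those of the progenitor and the NK and innate lymphoid lists were not. The B cell genes Pax5, Fcer2a and Cr2 were well above background on 0 NIKaly/aly arrays, against 2, 1 and 1 wild-type arrays. The part of these markers in the Ltb reading was not tested.

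Lta encodes lymphotoxin alpha, which forms soluble trimers that bind TNF receptors and mixed trimers with lymphotoxin beta. The array carries its probe on 10 spots, and 3 of the 60 Lta spots over the 6 arrays were well above background, 1 in NIKaly/aly 2 and 2 in wild type 3. On 8 of the 60 the processed signal was a surrogate that the software sets for spots at or under background. The spot average read -3.59, -3.97 and -3.42 in NIKaly/aly 2, 4 and 6, against -2.84, -3.86 and -3.86 in wild type 1, 3 and 5. These values overlap between the genotypes, and no order is read from them, as only 3 of the 60 spots rose clearly over background. Within 1 array the 10 single spots had an SD of 0.33 to 0.68 log2 units. That SD includes spots flagged as outliers, which the averages leave out. No fold is given, as both genotypes lie below the level at which the probe could be measured. Lta transcript was thus not measured in LSK cells of either genotype, while Ltb, whose product anchors it, was well above background in all 6 samples.

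Tnf encodes tumor necrosis factor, the founding ligand of the family, made as a membrane protein and released by the protease encoded by Adam17. All 60 of its spots were well above background. The spot average read 2.06, 1.68 and 3.02 in NIKaly/aly 2, 4 and 6, against 2.44, 1.77 and 2.25 in wild type 1, 3 and 5. The highest and the lowest sample were both NIKaly/aly, and the wild-type samples lay between them. The 10 spots within an array had an SD of 0.05 to 0.11, so the spread between arrays, 0.69 in NIKaly/aly and 0.35 in wild type, was several times the spot error. The genotype difference was 0.10 ± 0.39 (SE; 95% interval -0.80 to 0.996; limma, adjusted p = 0.99998). It was -0.29 without NIKaly/aly 6, the brightest sample, -0.096 without wild type 3, and 0.34 without samples 1 and 2. In NIKaly/aly 6 Nfkbia and Tnfaip3, inhibitors that NF-kB itself induces, also had their highest reading. Nfkbia read 7.43 there, 6.45 and 6.27 in NIKaly/aly 2 and 4, and 5.82 to 6.84 in wild type. Tnfaip3 read 5.46 there, 4.51 and 4.55 in NIKaly/aly 2 and 4, and 3.53 to 4.87 in wild type. Of the other tested NF-kB subunit and inhibitor genes, Nfkb1 and Relb were also highest there, and Nfkb2, Rela, Nfkbib and Nfkbie were not. The part of NF-kB in the Tnf reading was not tested. T cells are known producers of TNF, and the mean level of 10 tested T cell markers was 1.18, -0.23 and 1.37 in NIKaly/aly 2, 4 and 6, against 1.61, 0.20 and 0.78 in wild type 1, 3 and 5, summing to -2.27 to 13.7 in NIKaly/aly and 1.99 to 16.1 in wild type. Of these 10 markers 3 read higher and 7 lower, and Cd8a and Trat1 were not well above background on any array. The 9 tested monocyte, macrophage and dendritic markers averaged 1.96, 1.72 and 1.96 in NIKaly/aly 2, 4 and 6. In wild type 1, 3 and 5 they averaged 2.48, 2.40 and 2.26. Of these 9 markers 1 read higher and 8 lower, where 51.5% of all tested genes read lower. The part of either list in the Tnf reading was not tested.

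**Figure D2:**
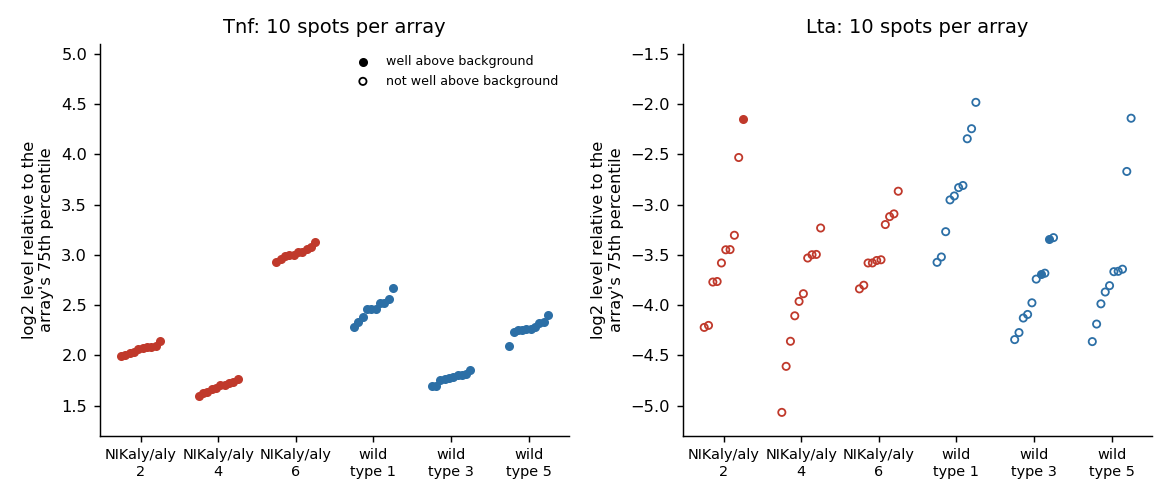
The 10 spots of the Tnf probe and of the Lta probe on each array, as log2 level relative to the array's 75th percentile, sorted within an array, with NIKaly/aly in red left of wild type in blue. Both panels span the same number of log2 units. Filled points were well above background, and spots with an outlier flag, left out of the averages, are included. The Tnf spots of an array lie close together and all are filled, while the Lta spots scatter and 3 of 60 are filled.

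Tnfsf14 encodes LIGHT, a ligand of the lymphotoxin beta receptor and of the receptor encoded by Tnfrsf14. On the scale used here it varied least of the tested ligands, over 0.73 log2 units across the 6 arrays. It read 2.07, 1.81 and 1.35 in NIKaly/aly 2, 4 and 6, against 2.08, 1.81 and 1.70 in wild type 1, 3 and 5. Apart from the low value of NIKaly/aly 6 the genotypes were nearly level. The difference was -0.12 ± 0.29 (SE; 95% interval -0.78 to 0.54; limma, adjusted p = 0.99998), 0.072 without NIKaly/aly 6, and -0.18 without samples 1 and 2.

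Tnfsf12 encodes TWEAK, the ligand of the receptor encoded by Tnfrsf12a. The brighter probe read 0.00, -0.37 and 0.36 in NIKaly/aly 2, 4 and 6, against 1.21, -0.19 and 0.42 in wild type 1, 3 and 5. Wild type 1 stood above the other 5 arrays, which overlapped. The difference was -0.48 ± 0.41 (SE; 95% interval -1.43 to 0.46; limma, adjusted p = 0.99998), and it was -0.12 both without wild type 1 and without samples 1 and 2. The dimmer probe, whose open-frame sequence is given above, passed the background flag on 1 NIKaly/aly array and 2 wild-type arrays. It read -3.54, -2.94 and -2.84 in NIKaly/aly 2, 4 and 6, against -1.31, -2.98 and -1.84 in wild type 1, 3 and 5. Its highest reading, in wild type 1, did not pass the flag, nor did those of NIKaly/aly 2 and 6. Both probes were lower on average in NIKaly/aly, the dimmer one by -1.06 ± 0.61 (SE; limma over every probe, adjusted p = 0.99998), and by -0.27 with normexp background correction. The brighter probe differed by -0.29 with that correction, and the mean of both probes by -0.77 with the scaling used throughout.

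Tnfsf13b encodes BAFF, the survival factor of B cells, which neutrophils, monocytes and stromal cells are known to make. It varied most of the tested ligands, over 2.82 log2 units. It read -0.72, -2.51 and -0.78 in NIKaly/aly 2, 4 and 6, against 0.02, -2.80 and -0.66 in wild type 1, 3 and 5. On this scale sample 4 of NIKaly/aly and sample 3 of wild type were both low, and the other 4 were well above them, so the spread ran across the genotypes and not between them. Before scaling the signal was 76.3, 35.3 and 29.5 in NIKaly/aly 2, 4 and 6, against 47.8, 32.3 and 50.9 in wild type 1, 3 and 5. The lowest unscaled signal was thus in NIKaly/aly 6. The 75th percentile used for scaling was 201 in NIKaly/aly 4 and 225 in wild type 3, against 47.0 to 126 on the other 4 arrays. The difference was -0.19 ± 0.80 (SE; 95% interval -2.04 to 1.65; limma, adjusted p = 0.99998). Leaving out wild type 3 gave -1.02, and the value was positive when NIKaly/aly 4 (0.39), wild type 1 (0.39) or wild type 5 (0.051) was left out, so single arrays set its sign. It was 0.080 without samples 1 and 2. Of the 12 mature neutrophil markers 11 had their 2 lowest readings in NIKaly/aly 4 and wild type 3, the exception being Csf3r. So did 6 of 10 T cell, 5 of 10 B cell, 3 of 5 plasma cell and 4 of 7 erythroblast markers. In the other lists it was 2 of 6 NK and innate lymphoid, 1 of 9 monocyte, macrophage and dendritic, and 0 of 12 progenitor markers. The mean of the 12 neutrophil markers was 6.45, 4.37 and 6.02 in NIKaly/aly 2, 4 and 6, against 6.93, 4.51 and 6.08 in wild type 1, 3 and 5, lowest in the same 2 samples. Among them Ly6g, which defines neutrophils, was well above background on all 6 arrays. The part of these markers in the Tnfsf13b reading was not tested.

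**Figure D3:**
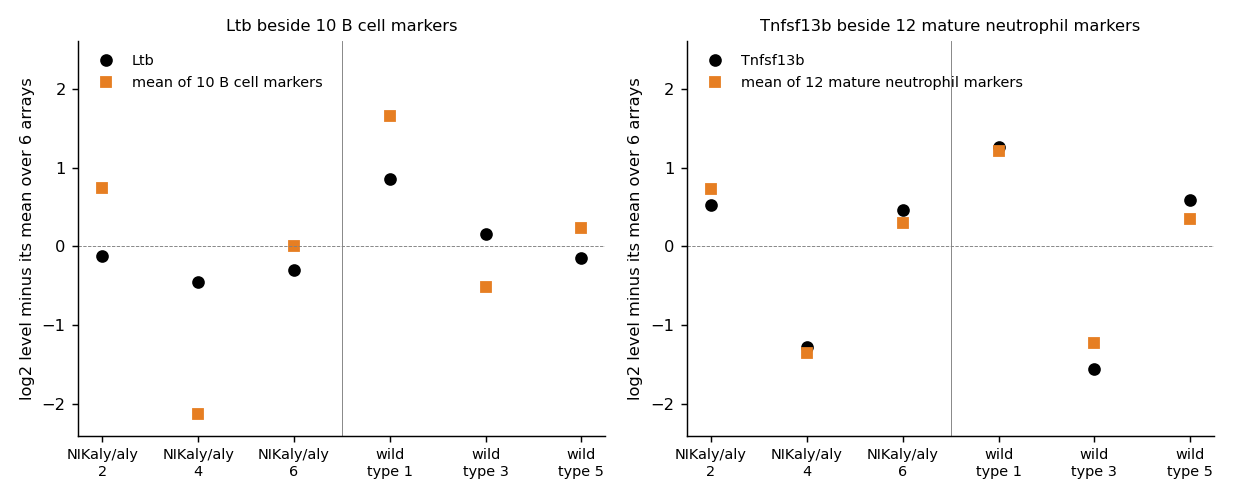
Ltb beside the mean of 10 B cell markers (left) and Tnfsf13b beside the mean of 12 mature neutrophil markers (right), each as log2 level minus its own mean over the 6 arrays, with NIKaly/aly left of wild type. Tnfsf13b and the neutrophil markers are both low in NIKaly/aly 4 and wild type 3. On this scale Ltb and the B cell markers are both highest in wild type 1 and lowest in NIKaly/aly 4, and differ in order among the other samples. Marker means of plasma cells, T cells, neutrophils, monocytes and erythroblasts had the same highest and lowest sample.

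Tnfsf10 encodes TRAIL, which in mice binds the death receptor encoded by Tnfrsf10b. It read 1.12, 1.51 and 0.46 in NIKaly/aly 2, 4 and 6, against 0.78, 1.42 and 0.74 in wild type 1, 3 and 5. Its high samples, NIKaly/aly 4 and wild type 3, were the low ones for Tnfsf13b. The difference was 0.05 ± 0.36 (SE; 95% interval -0.77 to 0.87; limma, adjusted p = 0.99998), and it was -0.097 without samples 1 and 2. Tnfsf11 encodes RANK ligand, the osteoclast factor that T cells and stromal cells also use to signal to RANK. Its single spot read -3.16, -5.59 and -3.83 in NIKaly/aly 2, 4 and 6, against -3.84, -4.46 and -4.50 in wild type 1, 3 and 5. No array of either genotype had it well above background, so these values carry no order and no fold is given.

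**Figure D4:**
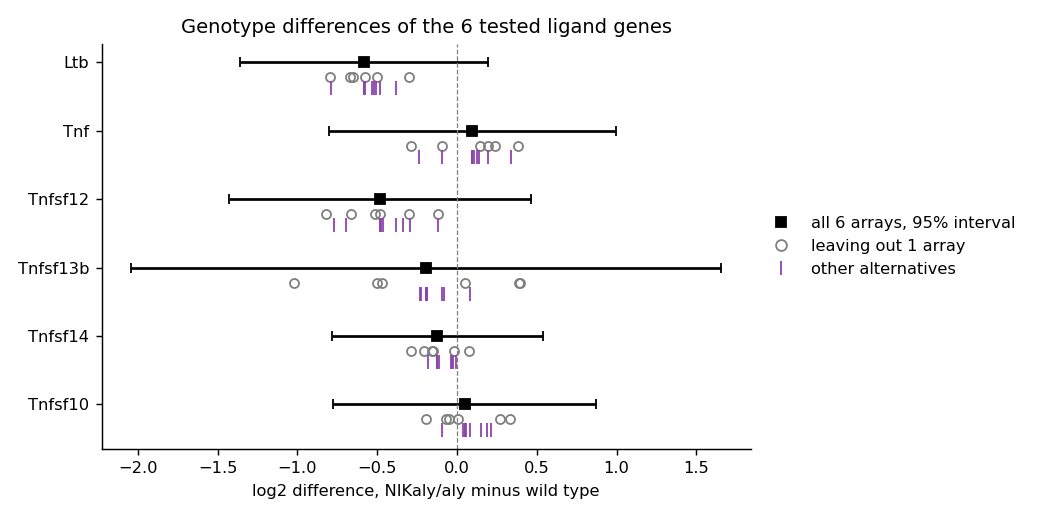
Log2 difference, NIKaly/aly minus wild type, for the 6 tested ligands, with the 95% interval from limma (squares), the values leaving out 1 array (open circles) and the other alternatives (ticks). All 6 intervals include 0. Ltb and Tnfsf12 stay below 0 in all alternatives shown, and Tnf, Tnfsf13b, Tnfsf14 and Tnfsf10 lie on both sides of 0.

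The profile of each ligand over the 6 arrays was set beside those of 8999 other genes that had a current symbol and were well above background on all 6. The measure was the root mean square difference of the 6 values, each gene centred on its own mean. The nearest to Ltb were Pgm2, a phosphoglucomutase gene (0.10 log2 units), Tm7sf3 (0.10) and Aatk (0.12), where the median gene was 0.47 away. Near to Tnf were Vcl, which encodes the adhesion protein vinculin (0.10), and Otof (0.11), with a median of 0.60. Nearest to Tnfsf12 were Gfra4 (0.08), Pik3r6 (0.08) and Krtap19-5 (0.09), with a median of 0.59. Tnfsf13b was nearest to Fpr1, the formyl peptide receptor gene of neutrophils and monocytes (0.14), Rasgrp4 (0.20) and Retnlg, a neutrophil gene among the 12 markers (0.21), with a median of 1.02. Tnfsf10 was nearest to the adaptor gene Grb2 (0.06), Trim33 (0.06) and Brd9 (0.10), with a median of 0.50. These are descriptions over 6 arrays that share 1 labelling protocol.

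The receptors of these ligands were mostly measurable. Of 14 receptor genes 11 were tested, 7 reading higher and 4 lower in NIKaly/aly with a median of 0.12, and none passed the test. The groups did not overlap for 1 of the 11, where 2.68% of all genes did so in that direction. That gene was Tnfrsf11a, the receptor of RANK ligand, at -1.52, -0.92 and -0.27 in NIKaly/aly 2, 4 and 6, against -1.88, -1.56 and -3.09 in wild type 1, 3 and 5 (difference 1.27 ± 0.55, SE; limma, adjusted p = 0.99998). Its probe passed the background flag on 3 NIKaly/aly arrays and 1 wild-type array, so it entered the test through the genotype where it is high, its wild-type values lie mostly at background, and nothing is drawn from its count or the size of its difference. The difference was 0.62 ± 0.34 for the TRAIL receptor gene Tnfrsf10b and -0.66 ± 0.46 for Tnfrsf14, neither past the test. Tnfrsf14 was well above background on 2 NIKaly/aly arrays and 3 wild-type arrays. Ltbr, the receptor of lymphotoxin beta, was well above background on all 6 arrays and read 2.19, 1.47 and 0.88 in NIKaly/aly 2, 4 and 6, against 2.67, 1.76 and 1.39 in wild type 1, 3 and 5. Its difference of -0.43 ± 0.44 did not pass, and the genotypes overlapped. It is named as the partner of Ltb, a choice made after its values were seen.

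**Figure D5:**
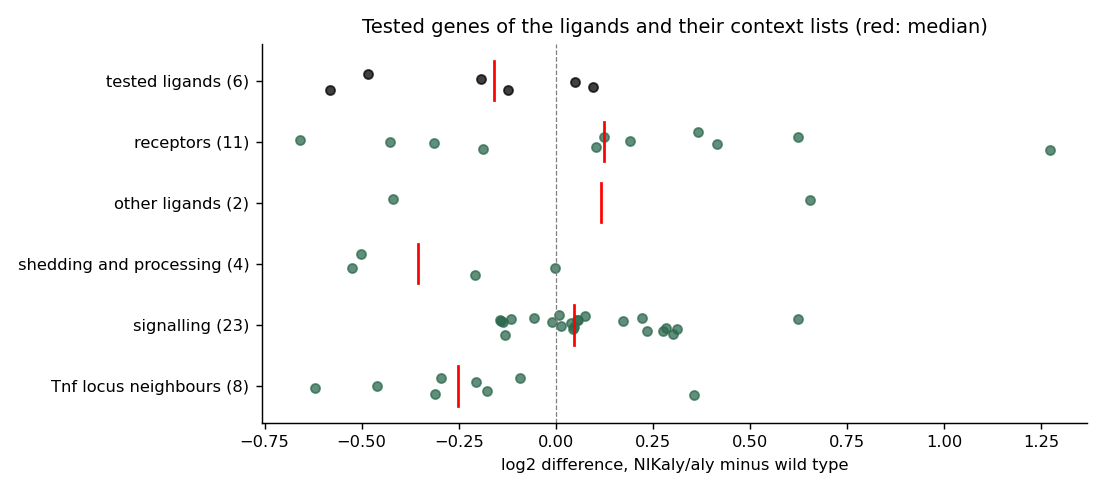
Log2 difference, NIKaly/aly minus wild type, of each tested gene among the ligands, their receptors, the other ligands of the superfamily, the shedding and processing genes, the signalling genes and the neighbours of Tnf, with the number tested in brackets and the median as a red line. The median is -0.16 for the ligands, 0.05 for the signalling genes and -0.25 for the neighbours of Tnf. No gene shown passed the test.

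Of 10 other ligands of the superfamily, 2 were tested. Tnfsf8, the ligand of the receptor known as CD30, differed by 0.65 ± 0.47 (SE), with 3 NIKaly/aly arrays and 1 wild-type array well above background. Tnfsf9 differed by -0.42 ± 0.65, with 2 NIKaly/aly arrays and 3 wild-type arrays well above background, and neither passed. Tnfsf9 read -0.81, -0.76 and -3.08 in NIKaly/aly 2, 4 and 6, against -0.81, -1.10 and -1.49 in wild type 1, 3 and 5. Tnfsf4, Tnfsf18 and Cd40lg were not well above background on any array, and no probe carried the name Tnfsf13. Of 5 genes that shed or process these ligands 4 were tested and all 4 read lower, with a median of -0.35 and none past the test. Of all tested genes 51.5% read lower. Rhbdf2 and Rhbdf1, which carry the TNF-releasing protease to the cell surface, differed by -0.50 ± 0.35 and -0.53 ± 0.39, and the protease gene Furin by -0.21 ± 0.25. The remaining gene, Adam10, was level between genotypes (-0.0021 ± 0.26). Adam17 itself passed the background flag on 0 NIKaly/aly arrays and 1 wild-type array and was not tested. Of 24 signalling genes downstream of the receptors 23 were tested, 16 higher and 7 lower, with a median of 0.05 and none past the test. The 3 with the smallest p were Tnfaip3 (0.63 ± 0.43), an inhibitor of NF-kB, Traf1 (0.28 ± 0.39), an adaptor of TNF receptors, and Birc2 (0.23 ± 0.34), a ubiquitin ligase that marks NIK for degradation.

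Most neighbours of Ltb, Tnf and Lta on chromosome 17 were measurable in LSK cells. Of the 9 found under the names searched 8 were tested, 7 lower and 1 higher in NIKaly/aly, with a median of -0.25 and none past the test. Of all tested genes 51.5% read lower. Lst1, a gene of leukocytes next to Ltb, read 5.30, 4.64 and 4.79 in NIKaly/aly 2, 4 and 6, against 6.30, 5.08 and 5.22 in wild type 1, 3 and 5, a difference of -0.62 ± 0.40. As with the scaled level of Ltb, wild type 1 was the highest and NIKaly/aly 4 the lowest sample. Prrc2a differed by -0.31 ± 0.25 and its groups did not overlap, which held for 1.89% of all genes in that direction. Nfkbil1 differed by -0.30 ± 0.28.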

How the data were processed

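Per the labels' protocols, LSK RNA was amplified with T7 polymerase and labelled with Cy3. Per the file headers, the authors read spot intensity with Agilent Feature Extraction 10.7.3.1 and placed probes on mm9. The processed signal is background-subtracted, with low values set to a surrogate. The authors' deposited table holds a ratio, the processed signal over the array's median; it matched that ratio to a relative 1.93e-06 and equals the median scaling tried here. Levels are log2 processed signals minus the log2 of the 75th percentile (non-control spots of that array). Outlier-flagged spots were left out and spots of a probe averaged; a probe counted as well above background on an array if most of its spots were. Probes well above background on at least 3 of 6 arrays were tested, keeping the brightest probe per gene (15682 genes), with limma 3.58.1 in R 4.3.3: lmFit and eBayes with intensity trend, genotype as the only term, two-sided, Benjamini-Hochberg over all genes at 0.05. The fit was tested on simulated data. The number of arrays limits the precision. Members, lists and tests were chosen with earlier results of these data known. Named by rule were all members, the 3 genes of each non-marker list with the smallest p, and the 3 genes of closest profile for members ranging over at least 1 log2 unit. For Tnf, 1 gene that this rule names is not reported here. Map3k14, Nfkb1, Nfkb2, Rela, Relb, Nfkbia, Nfkbib, Nfkbie, Ltbr, Adam10, Adam17, the untested ligands and single marker genes were named after their values were seen.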

Additional observations from a re-analysis of the deposited data

How the results depend on the processing

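In limma 0 of 15682 genes passed, with 208 at an unadjusted p under 0.05. The count was 1 with normexp, 10 with median scaling, 2 with no filter on dim probes, 5 with array weights, 2 with a replicate block of consecutive sample numbers, and 0 to 1 leaving out 1 array (1 without wild type 3). With every probe kept, 0 passed, and 1 with normexp. None of the 6 ligands passed in any of 19 alternatives. Ltb stayed negative in all 19 (-0.80 to -0.30), as did Tnfsf12 (-0.82 to -0.12). The labels share no number between genotypes and do not state that consecutive samples are pairs. With that block Ltb differed by -0.58 ± 0.16 (SE; limma, unadjusted p = 0.0088, adjusted p = 0.40, its lowest over the alternatives, the highest being 0.999999). The block put 1153 of 15682 genes at an unadjusted p under 0.05 in limma, against 208 without it. NIKaly/aly 2, 4 and 6 read -0.98, -0.61 and -0.16 against wild type 1, 3 and 5 for Ltb. The sign turned for Tnf with array weights (-0.095) and in slide row 1, samples 1 to 4 (-0.24), and for Tnfsf13b (0.080) and Tnfsf10 (-0.097) without samples 1 and 2. Leaving out 1 array gave -0.29 to 0.38 for Tnf, -1.02 to 0.39 for Tnfsf13b, -0.29 to 0.072 for Tnfsf14 and -0.19 to 0.33 for Tnfsf10. The causes were not tested. Signal over background set the limit for Lta and Tnfsf11, which have no measured difference.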
